A study of Canis lupus familiaris with 23 samples.

Results

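MAP1B, CASK, LAMA4 and LGALS3 are genes of the cytoskeleton, the cell membrane and the cell surface that the study of canine osteosarcoma named. It listed MAP1B, CASK and LAMA4 as much higher in canine tumors than in canine normal tissue, but little or not raised in human tumors. LGALS3 was among the genes it measured by RT-PCR, picked as raised in both species or in the dog. Every probe set that the array annotation gives to 1 of these 4 symbols alone was taken, which made 11 of the 23836 probe sets tested. MAP1B had 2 of them, CASK 1, LAMA4 7 and LGALS3 1, and the 4 genes were among 6540 that could be named. The values are log2 expression after robust multi-array averaging (RMA), so a difference of 1 is a factor of 2.

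Of the 23 samples, 15 were primary tumors (osteosarcoma of pet dogs, taken before chemotherapy), 2 were cell lines grown from canine osteosarcoma, and 6 were normal organs of research-colony dogs, namely 2 kidneys, 2 livers and 2 lymph nodes. The labels give no treatment, genotype or age for any group. The normal organs are soft tissues and not bone, the donors of the organ samples are not identified, and each cell line is a single culture grown without the other cells of a tumor. In tissue samples, fewer cells of a type and less RNA per cell cannot be told apart.

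MAP1B is a microtubule-associated protein best known from growing axons, where it binds and stabilizes microtubules. CASK is a scaffold protein of the membrane-associated guanylate kinase family that links surface proteins such as syndecans and neurexins to the cytoskeleton through partners including the LIN7 proteins. LAMA4 encodes a laminin alpha chain that joins a beta and a gamma chain in the basement membrane of blood vessels, muscle and fat, where cells hold it through integrins. LGALS3 encodes galectin-3, a lectin that binds galactose-bearing sugars inside and outside the cell and is abundant in macrophages and many epithelia.

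The arrays fell into 2 technical classes before any comparison of groups. On each array the actin and Gapdh control probe sets give a 5′ index, the mean of the 3′ value minus the 5′ value of these transcripts, which is high where signal towards the 5′ end is lost. The index was 3.15 to 6.45 on 10 arrays, 7 tumors and replicate 1 of each organ, and -0.32 to 0.85 on the other 13, which were 8 tumors, both cell lines and replicate 2 of each organ. Markers went with the organ labels. The hepatocyte list averaged 10.7 in both liver samples and at most 5.71 elsewhere, the kidney epithelium list 8.57 to 8.74 in kidney and at most 6.72 elsewhere, and the 3 measured lymphocyte genes 8.75 to 9.80 in lymph node and at most 6.82 elsewhere. The osteoblast list averaged 7.88 to 9.55 in the tumors and 5.59 to 7.05 in the organs.

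To choose the 4 genes, the study drew on comparisons of tumors with normal tissue in these samples. Their tumor differences therefore describe that choice, carry no test here and are not independent evidence of a direction. At an adjusted p under 0.01, 3.02% of all probe sets were called higher in tumors and 2.93% lower, and 0.982% had all 15 tumors above the highest normal sample. All 11 differences were above 0. Of the 11 probe sets, 4 were called higher and 0 lower, and 2 had every tumor above every normal sample. The 4 called were the lead probe sets, the brightest of each gene. With the replicate number of the organ samples as a block, 351 in place of 699 probe sets were called lower in tumors.

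MAP1B was high in the tumors, and in all 3 organs it lay near the lower end of the scale. Its lead probe set, 1605371_at, ranged in the tumors from 7.32 through a median of 8.97 to 10.3, and the mean was 8.93 ± 0.82 (SD, n = 15). It read 4.84 and 5.07 in the kidney samples, 4.13 and 3.88 in the livers and 4.93 and 3.76 in the lymph nodes. The lowest tumor was therefore above the highest organ sample, and no tumor approached organ level. The tumor minus normal difference was 4.49 ± 0.36 (SE), or 22.5-fold. Taken organ by organ it was 3.97 ± 0.58 for kidney, 4.92 ± 0.58 for liver and 4.58 ± 0.58 for lymph node. These 3 differences lay within a range smaller than 2 of their standard errors, and MAP1B was the member whose contrast depended least on the organ. The limma F-test between organs gave an adjusted p of 0.454.

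The cell lines carried MAP1B at tumor level. They read 10.4 and 8.58, against the tumor range of 7.32 to 10.3. The cell line minus tumor difference was 0.55 ± 0.58 with a 95% interval of -0.67 to 1.76 (limma, adjusted p = 0.570), and without cell line 1 it was -0.34. In the cell lines the neuron and Schwann cell list had 0 of 12 genes called against the tumors by limma. At an unadjusted p under 0.05 it had 1, against 7005 of all 23836 probe sets. In tumors against normal organs, where 5.95% of all probe sets were called, 2 of those 12 genes rose. The median difference of the list was 0.10, and only these 2 genes had an unadjusted p under 0.05. GAP43 (0.80), NEFH (0.23), NEFL (-0.15), MBP (-0.14), NCAM1 (0.01) and S100B (0.15) were among those that did not pass. UCHL1, a neuronal ubiquitin hydrolase, was higher by 2.62 ± 0.43 (limma, adjusted p = 0.000358), and PMP22, a protein of peripheral myelin, by 1.13 ± 0.19 (adjusted p = 0.000408).

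The other MAP1B probe set, 1604322_at, was dim, with a range of 3.69 through 4.06 to 5.51 in the tumors and 3.57 to 3.83 in the organs. Its tumor minus normal difference was 0.63 ± 0.22, although it followed the lead across tumors within a class of arrays, with r = 0.866 over the 8 tumors of full 5′ signal (exact permutation test, p = 0.00499, adjusted over 14 such relations 0.0698) and 0.751 over the 7 of low signal (p = 0.0595, adjusted 0.155). The dim probe set was lower by 0.73 ± 0.20 in the low-signal tumors (limma, adjusted p = 0.0432), which does not reach the threshold of 0.01. The lead differed between the classes by -0.40 ± 0.40 (adjusted p = 0.612).

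CASK was the lead that varied most between tumors. Its single probe set, 1603863_at, ranged from 7.18 through 9.19 to 10.9 in the tumors, with a mean of 9.22 ± 0.89 (SD, n = 15). Tumors 6 and 14 were the highest, at 10.9 and 10.7, and tumor 5 stood apart at the bottom, at 7.18, where the next lowest tumor was at 8.60. The kidneys read 6.32 and 7.31, the livers 4.39 and 5.32 and the lymph nodes 6.71 and 6.30. All tumors except tumor 5 were above every organ sample. The tumor minus normal difference was 3.16 ± 0.43, or 8.94-fold. With kidney alone as the reference it was 2.40 ± 0.59, with liver 4.36 ± 0.59 and with lymph node 2.71 ± 0.59.

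The cell lines read 7.89 and 7.20, below 14 of the 15 tumors and close to the higher kidney sample. CASK was 1.67 ± 0.59 lower in them, with a 95% interval of -2.91 to -0.43, and its limma adjusted p of 0.0638 missed the threshold. Of all probe sets, 6.27% were called in this comparison in 1 direction or the other, and of the 11 members 0 were called. At an unadjusted p under 0.05 there was 1, CASK, against 7005 of all 23836 probe sets. Between the 5′ classes CASK had a low minus full difference of 0.14 ± 0.45 (adjusted p = 0.895) and tumor minus normal differences of 3.48 ± 0.64 on low-signal arrays and 2.84 ± 0.63 on full-signal arrays.

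LGALS3 had the narrowest spread between tumors of the 4 leads. Its probe set, 1582758_at, ranged from 11.01 through 11.97 to 12.6, with a mean of 11.8 ± 0.46 (SD, n = 15). The kidneys read 10.6 and 9.98, the livers 6.43 and 5.62, and the lymph nodes 8.80 and 6.14. All tumors were above all organ samples, but the margin over kidney was small and that over liver large. The tumor difference was 1.48 ± 0.45 (2.79-fold) for kidney, 5.76 ± 0.45 (54.2-fold) for liver and 4.32 ± 0.45 (19.96-fold) for lymph node. Over the 6 normal samples taken as 1 group it was 3.85 ± 0.54, a value that depended on which organs made up that group.

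**Figure D1:**
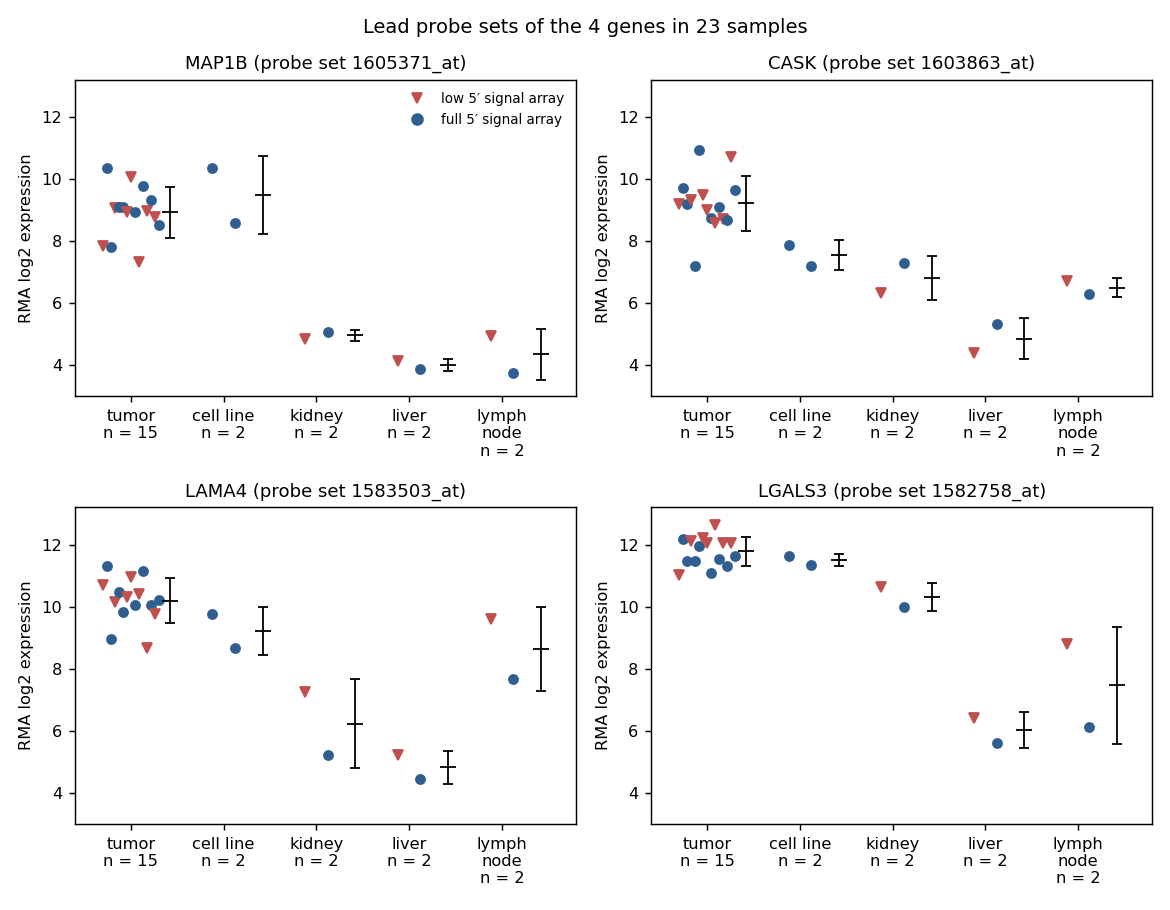
RMA log2 expression (y axis) of the lead probe set of MAP1B, CASK, LAMA4 and LGALS3 in the 15 tumors, 2 cell lines and 2 samples of each organ (x axis). Each point is a sample, triangles are arrays of low 5′ signal and circles of full 5′ signal, and bars are mean ± SD. Every tumor lies above every organ sample for MAP1B and LGALS3, 14 of 15 do for CASK and 13 of 15 for LAMA4.

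In the cell lines LGALS3 read 11.6 and 11.4, inside the tumor range. The difference of -0.29 ± 0.45 had a 95% interval of -1.24 to 0.65 (limma, adjusted p = 0.712). Macrophage markers were lower there than in the tumors. Their list averaged 6.50 to 8.82 in the tumors, 4.65 and 4.76 in the cell lines, 5.26 to 5.71 in kidney, 7.89 to 8.62 in liver and 7.67 to 8.55 in lymph node. Of the 13 measured genes, 6 fell in the cell lines against the tumors, among them CSF1R, the receptor of the macrophage growth factor, by 4.71 ± 0.80 (adjusted p = 0.000631) and CD68, a lysosomal protein of macrophages, by 4.12 ± 0.96 (adjusted p = 0.00688). In tumors against normal organs 0 of the 13 were called. At an unadjusted p under 0.05 there were 5, against 6315 of all 23836 probe sets. The liver, where LGALS3 was lowest, and the kidney, where it was highest among organs, stood in the opposite order for the macrophage list, with 2 samples each. Which cells carried LGALS3 was not tested. Over the 15 tumors LGALS3 and the macrophage score gave r = 0.332 and rho = 0.332 (permutation p = 0.228 and 0.227, adjusted 0.533 for r). The relation was 0.637 in the low-signal tumors and -0.299 in the full-signal tumors, and 0.493 without the 2 tumors farthest from the median of LGALS3.

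Differences between organs, like those between cell lines and tumors, were not the comparisons that chose the genes. The 6 organ samples were, however, normal samples in those comparisons. At an adjusted p under 0.01 the F-test called 3.09% of probe sets and 0 of the 11 members. Of all 23836 probe sets, 5532 had an unadjusted p under 0.05, and of the 11 members 3 did. These 3 were LGALS3 (adjusted p = 0.0951), CASK (0.112) and the lead probe set of LAMA4 (0.137). For LGALS3 the kidney was above the liver by 4.28 ± 0.92, with a 95% interval of 1.91 to 6.65 (adjusted p = 0.0991). For CASK the kidney was above the liver by 1.96 ± 0.47 (0.74 to 3.18, adjusted p = 0.133). For LAMA4 the liver was below the lymph node by 3.81 ± 0.93 (-6.22 to -1.41, adjusted p = 0.0816). The order of the organs was kidney, lymph node, liver for LGALS3, MAP1B and CASK and lymph node, kidney, liver for LAMA4, and neighbours in these orders overlapped for MAP1B, for CASK between kidney and lymph node and for LGALS3 between lymph node and liver.

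Those organ results depended on the model. With the replicate number as a block, 1477 in place of 736 probe sets were called and LAMA4 passed, with an adjusted p of 0.00944. With all 23 samples in the fit, LAMA4 (adjusted p = 0.00468) and LGALS3 (7.36e-05) passed. Replicate 1 of every organ was the low-signal array, so the replicate number and the 5′ class cannot be told apart in the organs. The lead of LAMA4 was higher in replicate 1 than in replicate 2 of each organ, at 7.24 and 5.21 in kidney, 5.21 and 4.44 in liver and 9.60 and 7.68 in lymph node. LGALS3 showed the same order in each organ.

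LAMA4 had 7 probe sets, and they did not give 1 answer. The lead, 1583503_at, ranged in the tumors from 8.68 through 10.2 to 11.3, with a mean of 10.2 ± 0.72 (SD, n = 15). The tumors exceeded all organ samples in 13 of 15 cases, and the 2 exceptions, tumors 3 and 12 at 8.95 and 8.68, were below lymph node 1. The tumor minus normal difference was 3.64 ± 0.55, or 12.4-fold. Kidney gave 3.97 ± 0.59, liver 5.37 ± 0.59 and lymph node the smallest, 1.56 ± 0.59. Without lymph node 1 the last difference was 2.52, and without lymph node 2 it was 0.60.

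The 4 next brightest LAMA4 probe sets split the tumors by 5′ class. Probe set 1606044_at read 4.91, 5.16, 5.01, 5.74, 4.70, 4.57 and 4.84 in the 7 tumors of low signal (tumors 1, 4, 7, 8, 10, 12 and 14). In the 8 tumors of full signal (tumors 2, 3, 5, 6, 9, 11, 13 and 15) it read 9.22, 7.78, 8.14, 7.61, 7.96, 8.89, 8.66 and 8.38. No low-signal tumor came near the lowest full-signal tumor. The low minus full difference was -3.34 ± 0.24 (limma, adjusted p = 1.27e-06), while the lead of the same gene differed by -0.11 ± 0.36 (adjusted p = 0.896).

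The same split, smaller, appeared in the 3 dimmer ones. Probe set 1593030_at read 4.40 to 5.002 in the low-signal and 5.73 to 6.76 in the full-signal tumors (-1.59 ± 0.16, adjusted p = 2.07e-05). Probe set 1605466_at read 3.67 to 4.89 and 4.87 to 6.36 (-1.65 ± 0.23, adjusted p = 0.00041), overlapping at 1 pair of tumors, and 1596916_at read 3.72 to 4.10 and 4.36 to 6.02 (-1.08 ± 0.18, adjusted p = 0.0014). The last 2 probe sets, 1593031_at and 1598493_at, stayed between 3.05 and 3.89 in every tumor and did not separate the classes. Probe sets 1593030_at and 1593031_at have neighbouring numbers, and their source sequences were not available here.

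Over all probe sets, 2.64% fell in low-signal tumors and 0.541% rose at an adjusted p under 0.01, and 2.29% had all low-signal tumors below the lowest full-signal tumor. Of the 11 members 4 fell, 0 rose and 3 did not overlap between classes, all of them LAMA4 probe sets. Within a class the r of these 4 probe sets with the lead ran from 0.117 to 0.877, and 0 passed after adjustment. Over the 8 full-signal tumors 1606044_at and the lead gave r = 0.820 (exact permutation test, p = 0.0117, adjusted over 14 relations 0.0818), and over the 7 low-signal tumors 0.676 (p = 0.117, adjusted 0.181). Over the full-signal tumors 1606044_at gave r = 0.882 with 1593030_at and 0.790 with 1596916_at.

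**Figure D2:**
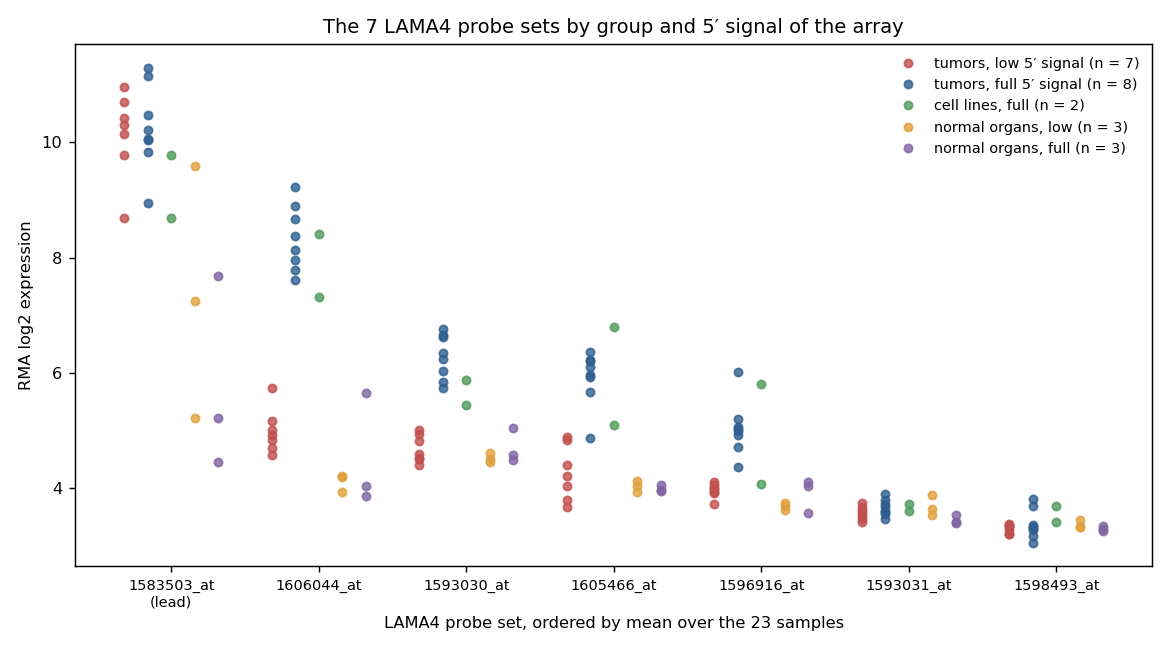
RMA log2 expression (y axis) of the 7 LAMA4 probe sets (x axis), with 1 point per sample and colours for group and 5′ class. For 1606044_at the low-signal tumors (4.57 to 5.74) lie below the full-signal tumors (7.61 to 9.22), and for the lead probe set both classes cover the same range.

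The tumor difference of LAMA4 also had other sizes in the 2 array classes, although no test of this passed 0.01. On full-signal arrays 1606044_at was higher in tumors by 3.81 ± 0.36 and on low-signal arrays by 0.88 ± 0.36. The interaction, the difference between these 2 values, was -2.93 ± 0.51 (limma, adjusted p = 0.0198). It was -1.41 ± 0.29 for 1593030_at (adjusted p = 0.033) and -1.69 ± 0.39 for 1605466_at (adjusted p = 0.0578). Of all probe sets 0.0378% had an interaction at an adjusted p under 0.01, and of the members 0 did. For the leads the interaction was -0.80 ± 0.72 for MAP1B, 0.64 ± 0.90 for CASK, -1.68 ± 1.06 for LAMA4 and -0.93 ± 1.06 for LGALS3, with adjusted p from 0.619 to 0.889. The lead of LAMA4 was higher in tumors by 2.79 ± 0.76 on low-signal and by 4.47 ± 0.75 on full-signal arrays.

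The lymph nodes showed the disagreement in single samples. The lead was higher in lymph node 1, at 9.60, than in lymph node 2, at 7.68, and 1606044_at was lower in lymph node 1, at 4.21, than in lymph node 2, at 5.66. Lymph node 1 was the low-signal array. For these 2 probe sets the order of the nodes was opposite. The livers did not show this, as 1606044_at read 4.20 in liver 1 and 3.86 in liver 2, the order of the lead. In the kidneys it read 3.93 and 4.03, near the lower end of the scale.

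**Figure D3:**
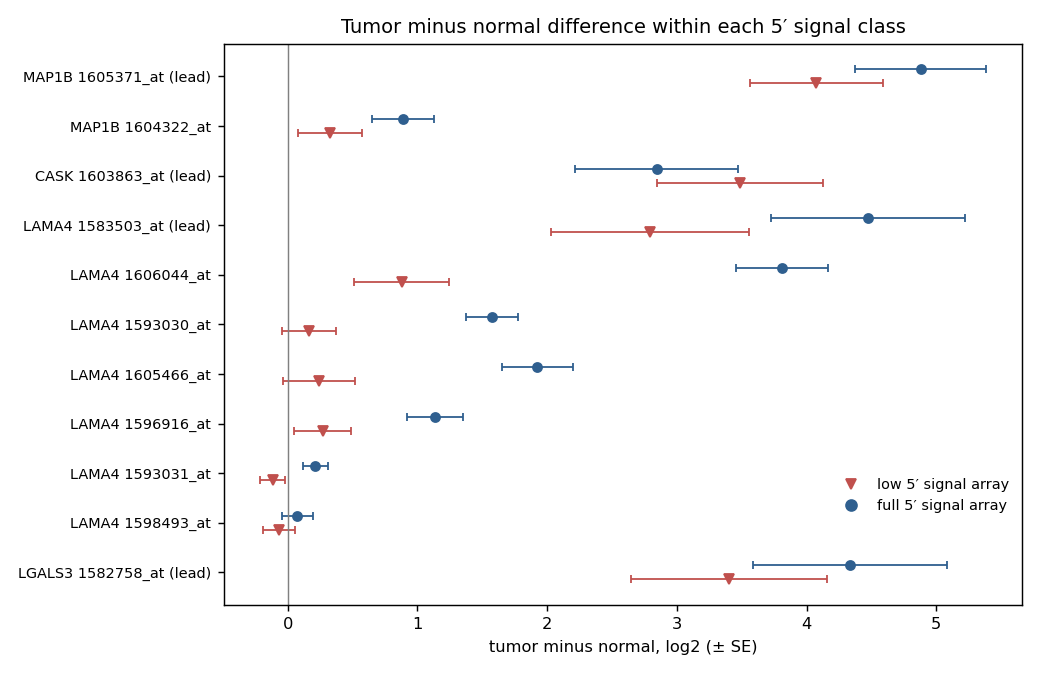
Tumor minus normal difference in log2 ± SE (x axis) for the 11 probe sets (y axis), on low-signal arrays (triangles, 7 tumors and 3 organ samples) and on full-signal arrays (circles, 8 tumors and 3 organ samples). LAMA4 1606044_at is at 0.88 on low-signal and 3.81 on full-signal arrays.

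Both cell lines were full-signal arrays, and for LAMA4 they were also compared with each class of tumors separately. The LAMA4 lead read 9.77 and 8.68 in them, a difference of -0.97 ± 0.59 from the tumors with a 95% interval of -2.20 to 0.26 (limma, adjusted p = 0.286). Probe set 1606044_at read 8.41 and 7.32. It was 2.88 ± 0.41 above the low-signal tumors (adjusted p = 0.000129) and -0.47 ± 0.40 from the full-signal tumors (adjusted p = 0.468). For 1605466_at the values were 1.68 ± 0.39 (adjusted p = 0.00665) and 0.03 ± 0.38 (adjusted p = 0.972). For 1593030_at they were 0.98 ± 0.24 (adjusted p = 0.0101) and -0.61 ± 0.24 (adjusted p = 0.0888). For 1596916_at they were 0.98 ± 0.34 (adjusted p = 0.0568) and -0.10 ± 0.34 (adjusted p = 0.871). These 4 probe sets were followed because they read low in the low-signal tumors, so the first values are not separate evidence of that split. Of 6 measured endothelial markers 2 were lower in the cell lines than in the tumors. PECAM1, an adhesion protein of vessel walls, fell by 5.43 ± 0.78 (adjusted p = 0.000138), and TIE1, an endothelial receptor kinase, fell by 2.28 ± 0.40 (adjusted p = 0.000928). The endothelial list averaged 4.99 and 5.05 in the cell lines and 6.03 to 7.70 in the tumors.

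Of the 6 pairs of leads, 0 passed a permutation test of their correlation over the 15 tumors at an adjusted p under 0.05, the threshold for correlations, with 0 at an unadjusted p under 0.05. The highest r was 0.439 for MAP1B and LAMA4 (rho = 0.400, permutation p = 0.102 and 0.140, adjusted 0.614 and 0.842), and it was 0.459 without the 2 tumors farthest from the median of MAP1B. Within the array classes it was 0.900 over the 8 full-signal tumors (exact permutation test, p = 0.00565, adjusted over 6 pairs 0.0339) and -0.031 over the 7 low-signal tumors (p = 0.949). The other 5 pairs lay between -0.082 and 0.269. Tumor 2 was the highest of the 15 for MAP1B and for LAMA4, and tumor 6 for CASK. Tumor 10 was the highest for LGALS3 and the lowest for MAP1B.

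Against the scores of 7 cell type lists, 0 of 28 relations passed, with 2 at an unadjusted p under 0.05 for r. By r, the lowest unadjusted p was for MAP1B and the osteoblast score (r = -0.542, rho = -0.475, permutation p = 0.0375 and 0.0759, adjusted 0.503 for r), which was -0.347 without the 2 farthest tumors, -0.769 in the low-signal and -0.412 in the full-signal tumors. Next was LAMA4 and the endothelial score (r = 0.515, rho = 0.529, permutation p = 0.0484 and 0.0448, adjusted 0.503 for r), which was 0.518 without the 2 farthest tumors, 0.506 in the low-signal and 0.523 in the full-signal tumors. The 2 relations ran in the same direction in both classes, which are parts of the same 15 tumors. By rho, the lowest unadjusted p was for LAMA4 and the osteoblast score (rho = -0.557, permutation p = 0.0349, adjusted 0.425). Its r was -0.497 (permutation p = 0.061, adjusted 0.503). With the mean of all probe sets of each gene, MAP1B and the osteoblast score gave r = -0.627 (permutation p = 0.0126, adjusted 0.353). LAMA4 and the endothelial score then gave r = 0.244 (permutation p = 0.376, adjusted 0.721). MAP1B and the neuron and Schwann cell score gave r = 0.453, and -0.063 without the 2 tumors farthest from the median of MAP1B, so over the 15 tumors it rested on those 2. It was 0.861 in the low-signal and 0.293 in the full-signal tumors.

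The genes whose profile over the 15 tumors was most like each lead were ranked by r among 3935 genes with a mean of at least 5 and an SD of at least 0.3. They were picked for their r, which is given as a description with no test. For MAP1B the highest were KIF1B (0.745), a kinesin motor of axonal transport, DNAJB1 (0.681), a heat shock co-chaperone, EEA1 (0.675), a tether of early endosomes, SLC22A3 (0.663), an organic cation transporter, and STEAP2 (0.661), a metalloreductase. The lowest were MED24 (-0.779), a subunit of Mediator, and LETM2 (-0.772). Without the 2 tumors farthest from the median of MAP1B, KIF1B was at 0.516 and STEAP2 at 0.486, while EEA1 was at 0.681 and LETM2 at -0.739.

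For CASK the highest were CIBAR1 (0.845), a membrane-curving protein of the primary cilium, SDHAF2 (0.794), an assembly factor of succinate dehydrogenase, CHRDL2 (0.761), a chordin-like antagonist of bone morphogenetic proteins, CCDC8 (0.736) and RPA3 (0.733), a subunit of replication protein A. The lowest were TGM2 (-0.837), tissue transglutaminase, and JUNB (-0.758), a member of the AP-1 transcription factors. CIBAR1 rose in tumors against normal organs by 1.80 ± 0.40 (limma, adjusted p = 0.005), and JUNB rose by 1.57 ± 0.31 (adjusted p = 0.00216). Without the 2 tumors farthest from the median of CASK, CIBAR1 was at 0.701 and CCDC8 at 0.313.

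For the lead of LAMA4 the highest were SLC46A2 (0.801), a transporter, FBN1 (0.794), the fibrillin of extracellular microfibrils, MECOM (0.792), a zinc finger transcription factor, MFAP5 (0.771), a microfibril-associated glycoprotein, and COL4A2 (0.770), a collagen IV chain of basement membranes. The lowest were CCNI (-0.815), a cyclin, and WBP11 (-0.789), a splicing factor. FBN1 ranged from 7.995 to 12.1 over the tumors and MFAP5 from 4.51 to 11.4. FBN1 gave r = 0.879 in the low-signal and 0.825 in the full-signal tumors, and COL4A2 0.805 and 0.875. In tumors against normal organs FBN1 rose by 2.93 ± 0.60 (adjusted p = 0.00255) and COL4A2 by 2.61 ± 0.33 (adjusted p = 1.97e-05), while MFAP5 differed by 2.78 ± 0.90 (adjusted p = 0.0475).

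For LGALS3, whose own spread was the smallest, the highest were APPL2 (0.741), an adaptor protein of endosomes, PARP8 (0.740), an ADP-ribosyltransferase, TTC39C (0.731), SNX14 (0.708), a sorting nexin, and PHF3 (0.707), a plant homeodomain finger protein. The lowest were DCAF8 (-0.805), a substrate receptor of a ubiquitin ligase, and IVD (-0.725), a mitochondrial enzyme of leucine breakdown. None of the 7 passed the test between tumors and normal organs, where the adjusted p was 0.0186 to 0.904. APPL2 gave r = 0.732 in the low-signal and 0.668 in the full-signal tumors.

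**Figure D4:**
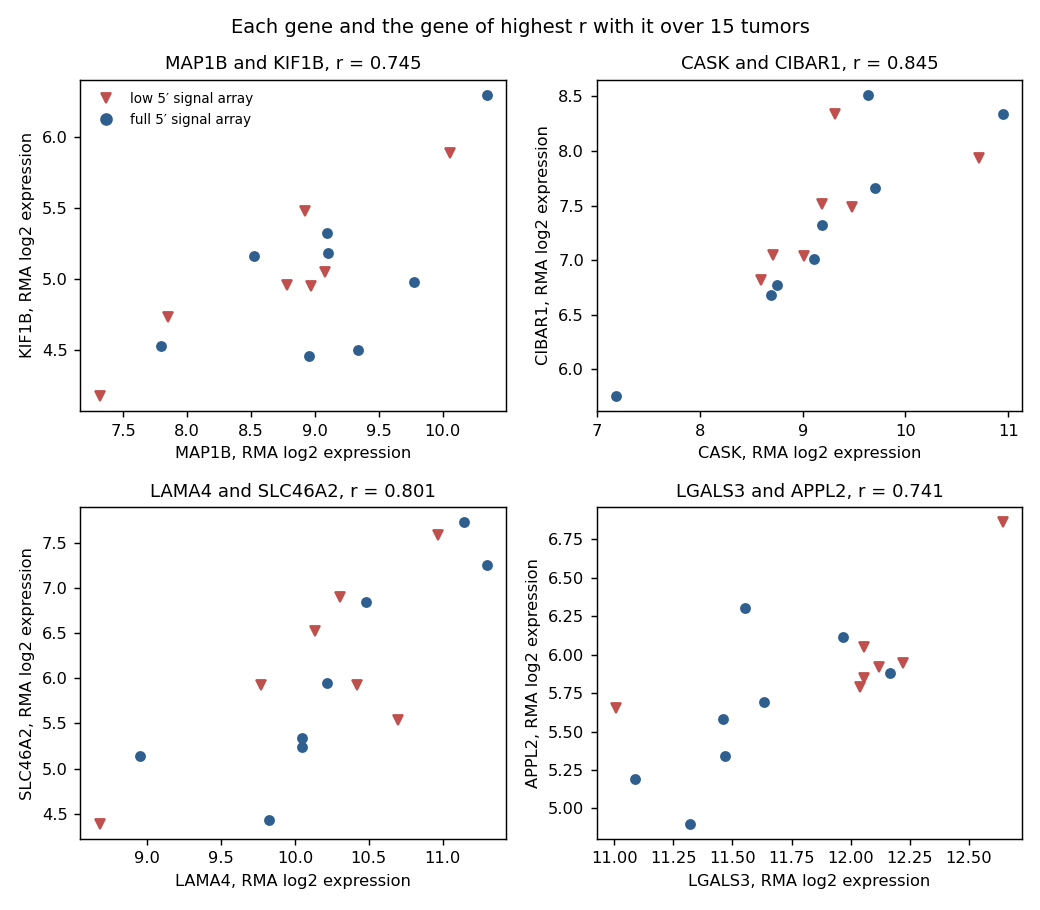
RMA log2 expression of each lead probe set (x axis) and of the gene with the highest r to it (y axis) over the 15 tumors, with triangles for low-signal and circles for full-signal arrays. The values of r are 0.745 for KIF1B, 0.845 for CIBAR1, 0.801 for SLC46A2 and 0.741 for APPL2.

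Genes that work with the 4 were followed through lists of their families and partners. In every gene list a gene entered by its lead probe set. The shares over all probe sets also cover dim ones and those without a symbol, so list and overall shares are not like for like. In tumors against normal organs, with 5.95% of all probe sets called and a median difference of -0.02, the microtubule list had 4 of 25 genes higher and 1 lower, with a median of 0.36. The tubulins TUBA1C (3.04 ± 0.74, adjusted p = 0.00874), TUBB6 (2.78 ± 0.26, adjusted p = 5.49e-07) and TUBB (1.82 ± 0.33, adjusted p = 0.000798) rose, as did MAP1A (0.98 ± 0.23, adjusted p = 0.00722), the nearest relative of MAP1B. MAP7, a microtubule-associated protein of epithelia, fell by 1.81 ± 0.38 (adjusted p = 0.0033). The probe set of TUBA1C can also match related tubulin transcripts, and it fell by 2.35 in the low-signal tumors (adjusted p = 0.000297), with 8 of 15 tumors above all organ samples.

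The list of membrane-associated guanylate kinases, CASK partners and syndecans had 4 of 17 genes higher and 0 lower, with a median of 0.27. EPB41L2 rose by 2.68 ± 0.30 (adjusted p = 5.25e-06) and EPB41L1 by 1.80 ± 0.30 (adjusted p = 0.000377), both proteins of the family that ties membrane proteins to actin. SDC2, a syndecan whose tail binds CASK, rose by 2.12 ± 0.38 (adjusted p = 0.000865), and ATP2B4, a plasma membrane calcium pump, by 1.90 ± 0.27 (adjusted p = 8.07e-05). In the cell lines EPB41L1 was higher again than in the tumors, by 1.91 ± 0.38 (adjusted p = 0.0025). LIN7C, a partner of CASK, did not pass between tumors and organs (0.27 ± 0.47, adjusted p = 0.776) and fell by 1.87 in the low-signal tumors (adjusted p = 0.000505).

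The list of laminins, basement membrane proteins and laminin receptors had 4 of 19 genes higher and 0 lower, with a median of 0.38. The collagen IV chains COL4A1 (2.99 ± 0.39, adjusted p = 2.5e-05) and COL4A2 rose, with HSPG2, the basement membrane proteoglycan perlecan (1.82 ± 0.22, adjusted p = 1.27e-05), and ITGA7, an alpha subunit of laminin-binding integrins (1.16 ± 0.28, adjusted p = 0.00962). All 15 tumors were above all organ samples for these 4. LAMC1, the gamma chain that pairs with LAMA4, and ITGB1, the beta subunit of most laminin-binding integrins, did not pass, at 1.90 ± 0.58 (adjusted p = 0.0356) and 2.60 ± 0.69 (adjusted p = 0.0157). In the low-signal tumors LAMC1 fell by 2.44 (adjusted p = 0.000238) and ITGB1 fell by 2.75 (adjusted p = 1.27e-06), as the 4 dimmer LAMA4 probe sets did. In the cell lines COL4A1 fell by 2.35 ± 0.51 (adjusted p = 0.00435).

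The list of galectins and galectin-3 partners had 3 of 12 genes higher and 1 lower, with a median of 0.06. LGALS1, the galectin of connective tissue, rose by 3.52 ± 0.42 (adjusted p = 8.48e-06), in all 15 tumors above all organ samples, and in the cell lines its difference from the tumors was 0.11 ± 0.42 (adjusted p = 0.894). PDCD6IP, a component of membrane budding, rose by 1.16 ± 0.15 (adjusted p = 2.44e-05) and CTNNB1, beta-catenin, by 0.88 ± 0.13 (adjusted p = 0.000112). LGALS2, a galectin of the gut and of monocytes, fell by 2.46 ± 0.46 (adjusted p = 0.00123). LGALS8, another galectin, did not pass between tumors and organs (0.25 ± 0.20, adjusted p = 0.478) and rose by 0.63 in the low-signal tumors (adjusted p = 0.00726).

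**Figure D5:**
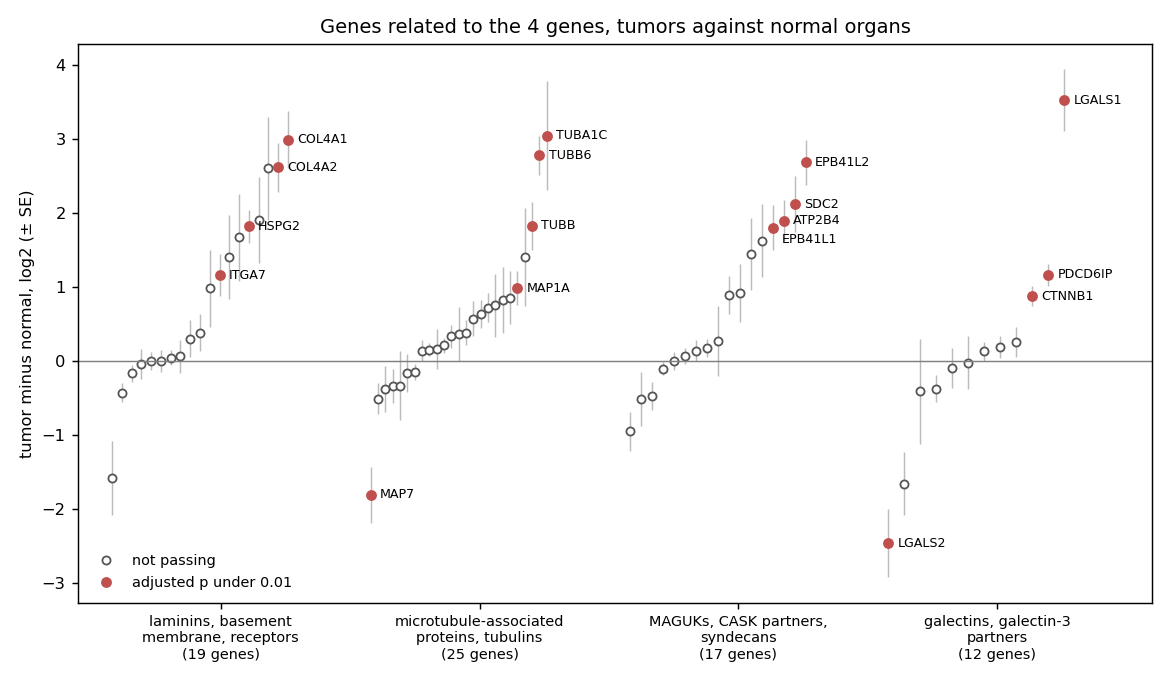
Tumor minus normal difference in log2 ± SE (y axis) of every measured gene of the 4 lists (x axis), ordered by size within a list. Filled points passed at an adjusted p under 0.01, which were 4 higher of 19, 4 higher and 1 lower of 25, 4 higher of 17, and 3 higher and 1 lower of 12.

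In the cell lines against the tumors, where 6.27% of all probe sets were called, the share was 12% of the microtubule list, 5.26% of the laminin list, 5.88% of the partner list and 8.33% of the galectin list. The microtubule list had 2 genes higher, TUBA4A by 2.31 ± 0.26 (adjusted p = 1.19e-05) and TUBB2A by 1.23 ± 0.30 (adjusted p = 0.00959), and 1 lower, MACF1, a linker of microtubules and actin, by 1.80 ± 0.28 (adjusted p = 0.000288). The laminin list had 1 gene lower, the partner list 1 higher and the galectin list 1 lower, CTNNB1 by 0.83 ± 0.18 (adjusted p = 0.00457). Of the proliferation list 2 of 10 genes rose in the cell lines, with a median of 1.62 over the list.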

How the data were processed

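Expression was measured on 1 type of Affymetrix canine array in 23 samples, which were grouped by their labels. Per the study's methods and the submitters' processing notes, the authors summarized probe intensities by RMA with the affy package, and the deposited unit is log2 expression. RMA compresses differences between dim probe sets. Their versions are not given in the sources used here. Arrays have no read depth, and precision is limited by how many there were.

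After 77 control probe sets were set aside, 23836 were tested, of which 10549 carried 1 symbol, 138 several and 13149 none. A gene was represented by its probe set of highest mean over the 23 samples, called its lead, and levels of different probe sets were not compared. Groups were compared with limma 3.58.1 in R 4.3.3 (lmFit, eBayes, two-sided, Benjamini-Hochberg over 23836 probe sets, threshold 0.01), checked on simulated data. Tumor versus normal used 21 samples, cell lines and single organs a model of 5 groups over all 23, and organ differences the 6 normal samples. The study describes its normal samples as biological replicates and its tumors as taken from affected dogs, without saying whether same-numbered organ samples share a dog, and a p-value reflects the spread between these samples alone.

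The border of the 5′ classes was an index of 1.5. Same-numbered organ samples deviated together from the means of their organs, with r = 0.530 to 0.607 over probe sets. The numbers also followed the 5′ class, so this r cannot show whether such samples share a dog. The main tests used no block, and the replicate number as a block was an alternative. Cell type scores were means of genes centred over the tumors. Correlations used 100000 permutations, or all orders within a class, and a threshold of 0.05 on the adjusted p. Named genes were the members, the 5 highest and 2 lowest by r for each lead, and up to 5 called genes of each list. The members and all lists were chosen with earlier results of these data known. The alternatives were filters, covariates, blocks, thresholds, other probe sets and leaving out samples.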

Additional observations from a re-analysis of the deposited data

Results flagged for a closer look

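For 2 LAMA4 probe sets 1 of the 6 normal samples stood apart from the others, by a gap above Dixon's 95% critical value (11 probe sets were looked at, and chance alone gives about 1 in 20). These 6 samples are of 3 organs. Lymph node 2 was at 5.66 for 1606044_at, with the next sample at 4.21, and at 5.05 for 1593030_at, with the next at 4.60.

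For the same 2 probe sets the tumor minus normal difference was not the same on the 2 classes of arrays. The difference on low-signal arrays minus that on full-signal arrays was -2.93 for 1606044_at (limma interaction, adjusted p = 0.0198) and -1.41 for 1593030_at (adjusted p = 0.033). Both pass 0.05 and miss 0.01.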

How the results depend on the processing

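The tumor minus normal differences of the 4 leads stayed above 0 under every alternative run, and no lead was called in the cell lines against the tumors under any of them. In tumors against normal organs, 720 probe sets were higher and 699 lower. The counts were 211 and 61 on low-signal arrays alone, 171 and 82 on full-signal arrays alone, 317 and 355 with 1 averaged profile per organ, and 1400 and 1575 at a threshold of 0.05, while the replicate block, fitted as a random effect, gave 351 lower. Fewer samples enter the first 3 of these. The LAMA4 difference of 3.64 was 2.79 on low-signal arrays, 4.47 on full-signal arrays and 1.28 as the mean of its 7 probe sets, and the mean of both MAP1B probe sets gave 2.56 in place of 4.49. LGALS3 was at 4.33 on full-signal arrays. Leaving out 1 sample gave 499 to 810 higher and 442 (without liver 1) to 908 lower, and LGALS3 at 3.39 to 4.39, the last without kidney 1. Against single organs LAMA4 then ranged from 2.96 to 4.99 for kidney and from 0.60 to 2.52 for lymph node, and LGALS3 from 2.99 to 5.65 for lymph node, each set by which of that organ's 2 samples was left out.

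Against the tumors, 899 probe sets were higher in the cell lines and 596 lower. The counts were 587 higher with a filter on a mean of at least 5, 391 lower against full-signal tumors alone, 1931 and 1539 at 0.05, and 336 to 934 and 126 to 621 with 1 sample left out, the low values without either cell line, where the lone line is assumed to vary like the other groups. MAP1B then ranged from -0.34 to 1.44. For the organs, 736 probe sets were called by the F-test, 1477 with the replicate block, 2568 at 0.05, 2161 with all 23 samples and 116 to 302 with any 1 of the 6 samples left out. LAMA4 had an adjusted p of 0.00944 with the replicate block and 0.00468 with all samples, and LGALS3 7.36e-05 with all samples. Kidney minus lymph node was -0.19 to 0.80 for CASK, the lowest without kidney 2, and liver minus lymph node was -0.93 to 0.24 for MAP1B, the highest without lymph node 1. Between the 5′ classes, 1123 fell and 626 rose at 0.05, against 629 and 129, and 201 rose with the index as a continuous covariate, where the slope of the LAMA4 lead was 0.0205 per unit of index. MAP1B 1604322_at passes at 0.05 (adjusted p = 0.0432, at -0.73).

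Among the correlations, MAP1B with LAMA4 was 0.900 in full-signal tumors, where it alone of the 6 pairs passed 0.05 (adjusted p = 0.0339), and -0.031 in low-signal tumors. Without the 2 farthest tumors MAP1B with CASK was -0.130, CASK with LAMA4 0.090, MAP1B with the neuron score -0.063 and CASK with it 0.371, which by rank was 0.118. In low-signal tumors CASK with LGALS3 was -0.127, LAMA4 with LGALS3 -0.168 and CASK with the neuron score 0.175. In full-signal tumors LGALS3 was -0.229 with the osteoclast and -0.299 with the macrophage score. With the mean of all probe sets LGALS3 was -0.050 with MAP1B and -0.450 with LAMA4. Of the 5 genes nearest to each lead, the number still among the nearest 5 by rank correlation was 2 for MAP1B, 2 for CASK, 3 for LAMA4 and 2 for LGALS3. With classes centred it was 3 for MAP1B and 1 for LGALS3, and with no filter 3 for MAP1B, 3 for CASK and 2 for LGALS3. Within low-signal tumors it was 1 for MAP1B and 0 for the others, and within full-signal tumors 0 for all 4. The comparisons within classes and the cell lines against each class were chosen after seeing the data. The cause of these changes was not tested.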
